A study of Homo sapiens with 12 samples.

Results

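The mitochondrial ribosomal protein genes were examined in the MDA-MB-468 and MDA-MB-231 lines, established triple negative breast cancer (TNBC) cell lines, with and without the chromatin remodeller SMARCA4. Members were the rows of the expression table whose symbol starts with MRPL or MRPS followed by a number, and there were 75 of them among 11529 genes. Of these, 48 encode proteins of the large subunit and 26 proteins of the small subunit, while MRPS36 carries the name but is now assigned to the alpha-ketoglutarate dehydrogenase complex. MRPS30 and MRPS18A were counted with the large subunit, where their proteins lie. The family list held 78 symbols, so 3 of them were not among the rows. Each cell line gave 3 control samples and 3 samples with SMARCA4 knocked out (KO), 12 in all. The sample titles call the controls wild type, while the sample descriptions call them control. Whether they carried a control vector is not stated in these labels. The number in the sample titles is a replicate number. The KO samples came from puromycin-selected pools of cells transduced with lentiCRISPR-v2 and a guide to SMARCA4, not from single clones. The labels do not say that replicates were separate cultures, so p-values measure the spread between these samples, which may be technical.

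Mitochondrial ribosomes translate the few proteins encoded by mitochondrial DNA (mtDNA), all of them subunits of the respiratory chain and ATP synthase. Their RNA is encoded by mtDNA, but every one of their proteins is encoded in the nucleus, made in the cytosol and imported. Some of these proteins descend from bacterial ribosomal proteins and others were acquired by mitochondria, and here 47 members were assigned to the first kind and 27 to the second. The genes are used in nearly all cells, and promoters of such genes often hold sites of YY1, of the ETS factor GABPA and of NRF1.

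The 75 members lie on 21 chromosomes. RefSeq promoters (GRCh38.p14, from 250 bases before to 50 after the start of the gene) were matched for 66 of them. The letters AAGATGGC, the core of the YY1 motif, occurred on either strand in 20 of the 66 promoters (30.3%), against 5.9% of the 8258 promoters of genes in the table and 3.0% of 27305 RefSeq promoters. CCGGAAG, the ETS core, occurred in 27 (40.9%), against 20.1% and 10.7%. GCATGCGC, the NRF1 core, occurred in 6 (9.1%), against 5.7% and 3.3%, and CACGTG, the E-box of MYC, in 6 (9.1%), against 10.3% and 7.4%. The letters of the YY1 and ETS motifs can share bases, but copies of different motifs overlapped in 0 of the 66 promoters. In 16 promoters the YY1 letters ran in the direction of the gene, and in 15 of these they lay after its start. The following stretches from 80 bases before to 30 after the start, 5′ to 3′ in the direction of the gene, belong to members described further on, with the motif letters in capitals; MRPL41 is shown as a member with none of them.
MRPS24 (chr7:43869488-43869597, minus strand): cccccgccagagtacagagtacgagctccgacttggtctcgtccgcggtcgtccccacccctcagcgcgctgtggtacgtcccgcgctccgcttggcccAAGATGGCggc
MRPS18B (chr6:30617760-30617869, plus strand): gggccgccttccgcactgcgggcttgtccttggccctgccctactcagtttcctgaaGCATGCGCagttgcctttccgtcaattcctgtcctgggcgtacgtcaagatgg
MRPS10 (chr6:42217832-42217941, minus strand): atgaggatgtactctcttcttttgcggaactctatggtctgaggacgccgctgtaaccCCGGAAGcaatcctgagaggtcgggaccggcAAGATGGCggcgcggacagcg
MRPL38 (chr17:75904855-75904964, minus strand): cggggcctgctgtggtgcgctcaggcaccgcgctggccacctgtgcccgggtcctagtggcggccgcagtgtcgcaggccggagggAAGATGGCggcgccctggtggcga
MRPL42 (chr12:93467434-93467543, plus strand): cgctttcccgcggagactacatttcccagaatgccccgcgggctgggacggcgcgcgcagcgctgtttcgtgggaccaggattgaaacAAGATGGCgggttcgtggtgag
MRPL41 (chr9:137551799-137551908, plus strand): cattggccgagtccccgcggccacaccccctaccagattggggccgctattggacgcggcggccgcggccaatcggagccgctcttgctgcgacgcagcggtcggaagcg
The YY1 letters stand downstream of the start in MRPS24, MRPS10, MRPL38 and MRPL42. MRPS18B holds the NRF1 letters in the stretch shown, and its YY1 copy begins at its end and runs beyond it. A match describes the sequence and is not evidence of binding.

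Expression was given as log2(FPKM + 1), where FPKM is a level per length of transcript, and changes are differences on that log2 scale. SMARCA4, the targeted gene, fell in KO samples of both cell lines. Its log2 fold change was -1.57 in MDA-MB-231 (adjusted p = 0.0014) and -1.16 in MDA-MB-468 (adjusted p = 0.014, and 0.033 with replicate blocks), both from limma with Benjamini-Hochberg adjustment. The cell lines were checked by marker genes. All 5 epithelial markers (CDH1, EPCAM, EGFR, KRT19 and KRT7) were higher in MDA-MB-468 controls, and VIM, AXL and CAV1 were higher in MDA-MB-231 controls, whereas CD44, listed for MDA-MB-231, was higher in MDA-MB-468 (log2 difference 0.89), and SPARC was not among the rows. The files hold no read counts, and how deeply a value was sequenced is unknown. The authors had removed genes with a low mean or a low SD, so a gene in the table had to vary.

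Mitochondrial ribosomal protein genes were expressed well above the typical gene. The mean FPKM over 12 samples ranged from 9.78 to 206 among members, a 21.1-fold range, with a median of 59.5, against 17.5 over all genes. The median was 59.4 for large subunit and 61.3 for small subunit members. The highest levels were those of MRPL33 (206), MRPL4 (166), MRPS24 (164), MRPS15 (136) and MRPL51 (134), all proteins of the ribosome itself. The lowest were those of MRPL50 (9.78), MRPS31 (13.8), MRPL44 (18.5), MRPL46 (19.6) and MRPS36 (21.1). The SD within groups had a median of 0.09 over members on the log2 scale, against 0.11 over all genes. In bulk RNA, fewer cells that use a gene and less RNA per cell cannot be told apart. The annotation (GENCODE release 44 on GRCh37) names pseudogenes for 34 members and shows another named gene overlapping 37, and for these the authors' counting could have split reads.

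The median FPKM of the 75 members was 56.2, 57.6 and 57.7 in MDA-MB-468 control samples, and 65.2, 64.6 and 62.2 in KO samples. In MDA-MB-231 it was 58.9, 56.6 and 59.7 in control samples, and 54.4, 53.4 and 56.4 in KO samples. KO samples therefore lay above all controls in MDA-MB-468 and below all controls in MDA-MB-231. The median over all genes on the log2 scale was between 4.14 and 4.18 in every sample. The members summed to 0.737% ± 0.028 (SD, n = 3) of all FPKM in MDA-MB-468 controls and 0.799% ± 0.008 (SD, n = 3) in KO samples, and to 0.709% ± 0.020 (SD, n = 3) and 0.652% ± 0.025 (SD, n = 3) in MDA-MB-231. The 15 genes encoded by mtDNA took a larger part of the summed FPKM and went the other way, from 18.0% ± 0.75 to 15.3% ± 0.78 (SD, n = 3 each) in MDA-MB-468 and from 16.4% ± 1.1 to 17.9% ± 0.98 (SD, n = 3 each) in MDA-MB-231. Without them in the sum, the members' share was 0.868%, 0.913% and 0.915% in MDA-MB-468 controls and 0.944%, 0.95% and 0.935% in KO samples, and in MDA-MB-231 0.855%, 0.831% and 0.859% in controls and 0.789%, 0.77% and 0.821% in KO samples. The groups of a cell line did not overlap on this scale either.

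**Figure D1:**
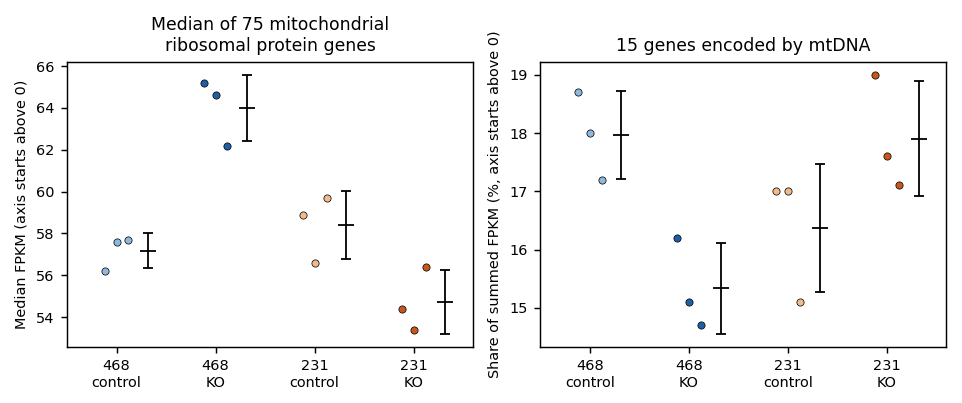
Median FPKM of the 75 mitochondrial ribosomal protein genes (left) and share of summed FPKM taken by 15 mtDNA-encoded genes (right, %), per sample (points, 3 per group) with mean and SD (bars); the axes do not start at 0. Members were highest in MDA-MB-468 KO samples (62.2 to 65.2) and lowest in MDA-MB-231 KO samples (53.4 to 56.4).

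The first comparison asked which members changed with SMARCA4 KO in MDA-MB-468. MRPS24, MRPL41 and MRPS18B rose, and no member fell; limma with Benjamini-Hochberg adjustment over all 11529 genes called 3 higher and 0 lower at an adjusted p under 0.05, and 22 higher and 0 lower at an unadjusted p under 0.05. In either direction the unadjusted share was 29.3% of members, close to the 25.1% of all genes; by direction it was 29.3% of members and 14.1% of all genes higher, and 0 members and 1268 of all 11529 genes lower. The adjusted calls are 4.0% of members higher, against 2.21% of all genes higher and 1.54% lower. No member passed the limit of 0.5 on the absolute log2 fold change, which 2.14% of all genes did, as the largest value was 0.44. The log2 fold change was above 0 in 66 members (88.0%), against 53.6% of all genes, with a median of 0.10 against 0.02. The 3 KO samples lay above the 3 controls in 26 members (34.7%), against 17.5% of all genes, and below them in 2 members, against 13.5%.

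MRPS24 (chr7:43906157-43909492, GRCh37), the counterpart of a bacterial protein at the mRNA entry, had FPKM of 138, 147 and 149 in MDA-MB-468 controls and 184, 178 and 180 in KO samples. The groups were well apart, with a log2 fold change of 0.32 (SE 0.05, adjusted p = 0.035 from limma). A readthrough gene, URGCP-MRPS24, shares its locus and strand. MRPL41 (chr9:140446331-140447007), a mitochondria-specific protein of the large subunit, had 33.8, 34.8 and 35.2 in controls and 42.8, 42.4 and 41.2 in KO samples, again without overlap, with a log2 fold change of 0.28 (SE 0.04, adjusted p = 0.036 from limma). MRPS18B (chr6:30585617-30594172) had 57.4, 56.9 and 59.1 in controls and 67.2, 72.5 and 71.2 in KO samples, with a log2 fold change of 0.28 (SE 0.05, adjusted p = 0.045 from limma). It is 1 of 3 human genes related to bacterial S18. Its paralogues did not pass the test, with log2 fold changes of 0.14 in MRPS18A, whose protein lies in the large subunit, and 0.10 in MRPS18C. The value furthest from 0 was that of MRPS36, at 12.7, 13.9 and 15.2 FPKM in controls and 21.6, 18.8 and 17.4 in KO samples (log2 fold change 0.44, adjusted p = 0.071 from limma), and the gene has 5 named pseudogenes. MRPL4, at 210, 241 and 248 in controls and 285, 281 and 294 in KO samples, gave 0.30 (adjusted p = 0.080 from limma) and also did not pass.

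In MDA-MB-468, the deviations of KO and control samples of the same replicate number correlated weakly over all genes (r = 0.254, 0.161 and 0.119). KO samples of different cell lines, which share only a number, gave 0.175, 0.0204 and 0.115, so pairing was not shown. When the replicate number was entered as a block, limma called 0 members and 2.47% of all genes (22.7% and 27.2% at an unadjusted p under 0.05), with adjusted p of 0.073 for MRPS24, 0.074 for MRPL41 and 0.076 for MRPS18B. Leaving out any control sample, or KO replicate 2 or 3, also left 0 members called, in fits that called 0 to 27 of all 11529 genes, so this loss ran through the whole table. Without KO replicate 1, 3 members and 725 of all genes were called. Members have short transcripts, with a median of 1224 bases against 3206 for all genes, and a GC content of 48.0% against 48.8%. Over the 10181 genes with an annotated length, the change in MDA-MB-468 had a Spearman rho of -0.21 with transcript length and 0.30 with GC content, and over members -0.34 and 0.55. After a correction of each sample for length and GC content, 62 members were above 0, against 5100 of the 10181 genes, and their median was 0.063. Only 1 member, MRPS36, was called (log2 fold change 0.49, adjusted p = 0.024 from limma). At an unadjusted p under 0.05 there were 6 members (8.0%), against 23.7% of the 10181 genes in either direction. MRPL41 was then at 0.06 (adjusted p = 0.59), MRPS24 at 0.19 (adjusted p = 0.11) and MRPS18B at 0.22 (adjusted p = 0.096). Without the correction, a fit of the same 10181 genes called 4 members and 4.52% of those genes, against 1 member and 6.75% with it.

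In MDA-MB-231 the members lay on the other side. With SMARCA4 KO, MRPL1, MRPS10, MRPL34, MRPL38, MRPL19, MRPL41 and MRPL42 fell, and MRPS6 rose. Limma called 7 members lower (9.33%, against 5.48% of all genes) and 1 higher (1.33%, against 5.34%). At an unadjusted p under 0.05 there were 24 lower and 1 higher, 33.3% of members against 31.2% of all genes in either direction; by direction, 16.4% of all genes were lower and 14.8% higher. None passed the limit of 0.5, which 3.7% of all genes did, as the values ranged from -0.39 to 0.32. The log2 fold change was below 0 in 67 members and above 0 in 8, while 5487 of all 11529 genes were above 0. The median was -0.14, against -0.01 over all genes. The 3 KO samples lay below the 3 controls in 29 members (38.7%), against 19.4% of all genes, and above them in 2, against 16.6%.

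MRPL1 (chr4:78783984-78873939), the counterpart of the bacterial protein of the stalk where tRNA leaves the ribosome, had FPKM of 30.7, 27.8 and 32.2 in MDA-MB-231 controls and 23.1, 22.9 and 23.8 in KO samples (log2 fold change -0.36, SE 0.06, adjusted p = 0.029 from limma). MRPS10 (chr6:42174545-42185599) had 95.5, 93.6 and 104 in controls and 84, 73.8 and 79.2 in KO samples (-0.30, SE 0.07, adjusted p = 0.049 from limma). MRPL34 (chr19:17403418-17417652) went from 83.8, 80.9 and 78.5 to 65.4, 64.6 and 69.7 (-0.28, adjusted p = 0.031 from limma). In each of these genes every KO sample was below every control. MRPL38 (chr17:73894725-73901174), a mitochondria-specific protein of the large subunit, went from 52.4, 52.1 and 51.6 to 42.1, 41.6 and 45.7 (-0.27, adjusted p = 0.034 from limma). MRPL41, which rose in MDA-MB-468, went from 51.7, 48.8 and 53.9 to 42.8, 42.8 and 44.4 in MDA-MB-231 (-0.24, adjusted p = 0.042 from limma). It was the only member called in both cell lines, in opposite directions. MRPL19 (chr2:75873909-75917977) gave -0.25 (adjusted p = 0.045 from limma) and MRPL42 (chr12:93861290-93909990, with 5 named pseudogenes) -0.21 (adjusted p = 0.035 from limma). MRPS6 (chr21:35445524-35515334) was the exception, at 75.7, 79.4 and 87 in controls and 106, 100 and 96.1 in KO samples (0.32, SE 0.07, adjusted p = 0.045 from limma). SLC5A3, a myo-inositol transporter gene that overlaps MRPS6 on the same strand, rose as well in MDA-MB-231, from 5.02, 4.39 and 4.59 to 8.71, 8.44 and 8.28 FPKM (0.74, adjusted p = 0.0059 from limma), and its part in the MRPS6 value was not tested.

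**Figure D2:**
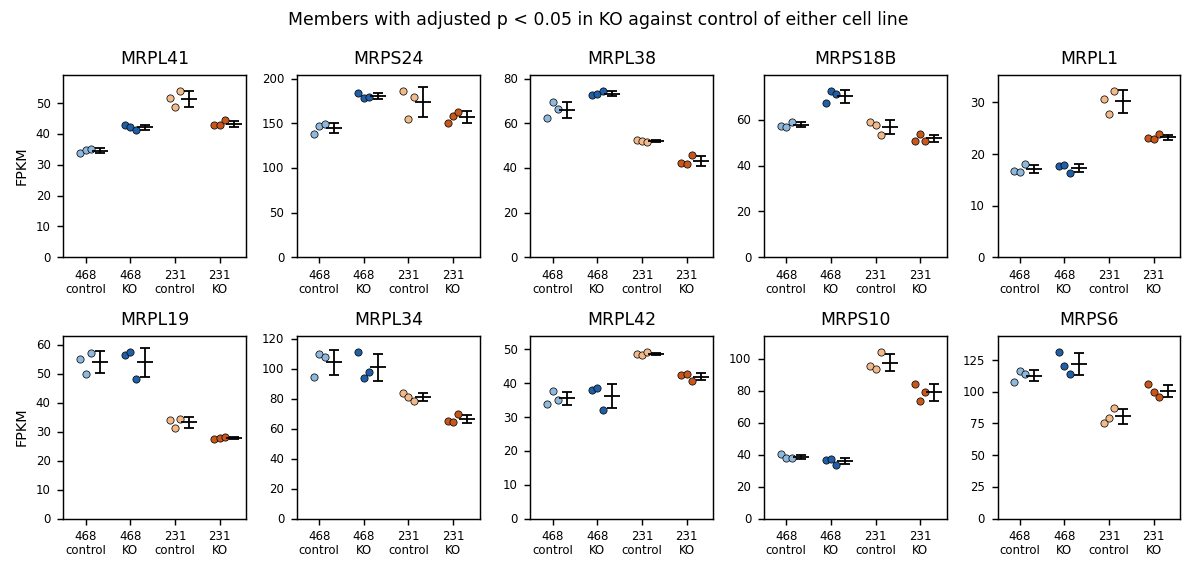
FPKM per sample (points) with mean and SD (bars, n = 3) of the 10 members with an adjusted p under 0.05 in KO against control of MDA-MB-468 or MDA-MB-231; every axis starts at 0. MRPL41 is higher in KO samples of MDA-MB-468 (41.2 to 42.8, controls 33.8 to 35.2) and lower in those of MDA-MB-231 (42.8 to 44.4, controls 48.8 to 53.9).

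Leaving out 1 sample lowered the calls over the whole table, from 1248 of all genes to between 103 and 481, and those of members with them. Without MDA-MB-231 control replicate 2 there were 2 members called, without KO replicate 3 there was 1, and without control replicate 1 or 3 or KO replicate 1 or 2 there were 0. After the correction for length and GC content, 7 members were again called lower and 1 higher, against 667 and 646 of 10181 genes. The members' median was -0.096, against -0.019. At an unadjusted p under 0.05 there were 25.3% of members and 30.9% of those genes. The members called were not the same. MRPL19, MRPL34, MRPL42 and MRPS10 no longer passed (adjusted p = 0.11, 0.070, 0.086 and 0.073 from limma). Among the members described here, MRPL14 (-0.37) and MRPL54 (-0.41) were newly called, and the other newly called members are not named.

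The next question was whether a member's change differed between the cell lines, tested as the difference of the changes in 1 limma fit of all 12 samples. MDA-MB-468 had the higher change for 17 members (22.7%, against 7.91% of all genes) and the lower one for 0 (against 6.83%); at an unadjusted p under 0.05 it was 33 (against 17.3% of all genes) and 0 (against 14.2%). The difference was above 0 in 72 of 75 members, against 6117 of all 11529 genes, with a median of 0.24 against 0.02. The exceptions were MRPS6, MRPS33 and MRPL36, none of them called. The sign was positive in the first cell line and negative in the second in 58 members (77.3%), against 3231 of all 11529 genes, and the reverse occurred in 0 members. Across members the changes of the cell lines had a Pearson r of 0.12 and a Spearman rho of 0.13. Members are not independent replicates, and these coefficients describe the genes only.

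**Figure D3:**
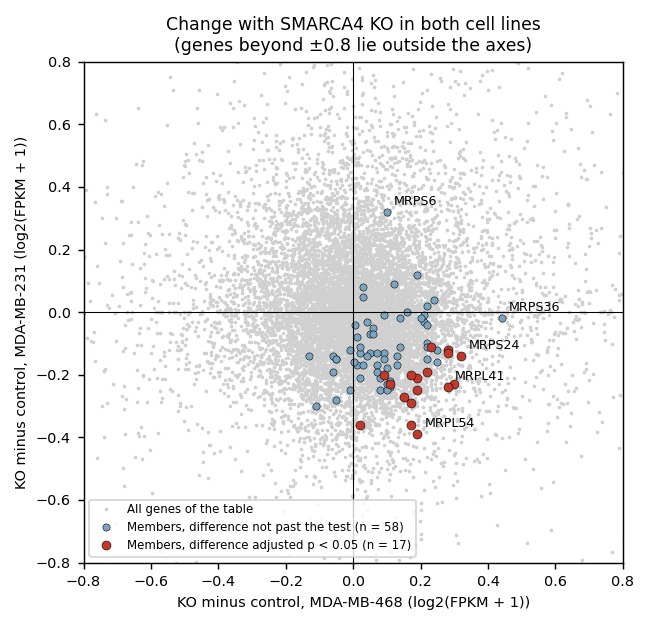
KO minus control in MDA-MB-468 (horizontal) and MDA-MB-231 (vertical), log2(FPKM + 1), for all genes (grey) and 75 members (blue, or red for the 17 whose difference between the cell lines had an adjusted p under 0.05). Most members (58) lie to the lower right of the zero lines, and MRPS6 lies above it.

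The difference was called in 11 large subunit members of 48 and 6 small subunit members of 26, with medians of 0.23 and 0.27. It was called in 14 of 47 members with bacterial counterparts and 3 of 27 mitochondria-specific ones, with medians of 0.26 and 0.22. The difference between these classes was not tested. Members with the YY1 letters in the promoter had a median of 0.22 (n = 20), and those without them 0.24 (n = 46). The largest difference was that of MRPL54, a mitochondria-specific protein, which had FPKM of 33.1, 42.7 and 44.9 in MDA-MB-468 controls, 47.5, 48.2 and 41.9 in KO samples, 64.5, 60.4 and 72.8 in MDA-MB-231 controls and 54.6, 43.8 and 52.5 in KO samples (0.58, SE 0.17, adjusted p = 0.046 from limma). Its groups overlapped in MDA-MB-468 and not in MDA-MB-231. MRPL14, at the interface of the subunits, was at 64.3, 76 and 81.1 against 82.3, 84.3 and 82 in MDA-MB-468 and at 148, 152 and 171 against 130, 107 and 130 in MDA-MB-231 (0.54, SE 0.14, adjusted p = 0.030 from limma). MRPL4, whose bacterial counterpart lines the exit tunnel and whose gene lies 701 kb from SMARCA4, was at 82.3, 71 and 80.3 in MDA-MB-231 controls and 58.9, 68.2 and 72.4 in KO samples, which overlapped, and differed by 0.53 (SE 0.13, adjusted p = 0.022 from limma) between the cell lines. MRPL41 had the smallest adjusted p among members (0.52, SE 0.08, adjusted p = 0.0024 from limma). Only these 4 members passed the limit of 0.5, and it was 3 with replicate blocks and 0 with quantile normalization, with the same 75th percentile in every sample or with the length and GC correction. MRPS24 (0.46, adjusted p = 0.018), MRPS28 (0.46, adjusted p = 0.042), MRPL38 (0.42, adjusted p = 0.011), MRPL33 (0.40, adjusted p = 0.042), MRPS18B (0.40, adjusted p = 0.013), MRPL1 (0.38, adjusted p = 0.025) and MRPS15 (0.37, adjusted p = 0.046), all from limma, followed. MRPL12 of the stalk that binds translation factors (0.44), MRPS12 of the decoding centre (0.41), MRPL27 (0.40), MRPS9 (0.34), MRPL2 (0.34) and MRPL35 (0.29) completed the 17, and were named after their values were seen. None of these last members was called with the length and GC correction.

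In the fit with replicate blocks, 8 members were called, all higher, and 12.7% of all genes in either direction. Leaving out 1 sample at a time gave 5 to 16 member calls and 924 to 1897 calls over all genes (1699 with every sample), and it was 5 without MDA-MB-231 KO replicate 2 or MDA-MB-468 control replicate 1, 6 without MDA-MB-468 KO replicate 2, 7 without MDA-MB-231 control or KO replicate 1, 8 without MDA-MB-231 control replicate 3 and 9 without MDA-MB-468 control replicate 2. Over all genes the difference had a Spearman rho of -0.20 with transcript length and -0.01 with GC content. After the correction for both, 64 members were above 0, against 5315 of 10181 genes, with a median of 0.167 against 0.014. Of the members, 6 were called higher and 1, MRPS6, lower (-0.33, adjusted p = 0.017 from limma). Over the 10181 genes it was 785 higher and 831 lower. At an unadjusted p under 0.05 there were then 33.3% of members and 33.1% of those genes in either direction. The part of transcript length beyond this correction was not tested.

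Profiles over the 12 samples were compared after centring each gene within its cell line. The median Pearson r of a member with the median of the other members was 0.69, and 37 members were above 0.7. MRPL12 (0.97), MRPS9 (0.96), MRPS15 (0.94), MRPL54 (0.93) and MRPS12 (0.92) were most alike to it, while MRPS6 (-0.30), MRPS21 (-0.10) and MRPS33 (-0.06) were below 0. Without centring, r was 0.15 in MRPL12, 0.59 in MRPS9, 0.5 in MRPS15, 0.18 in MRPL54 and 0.64 in MRPS12. Genes outside the family were not correlated with the members' median, so these values have no background.

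The other genes of mitochondrial translation were taken from lists by function. Among 7 mitoribosome proteins with other symbols, the median was 0.13 in MDA-MB-468, while that in MDA-MB-231 was -0.18, on the same sides of 0 as those of the members. ICT1, a release factor built into the large subunit, fell in MDA-MB-231 from 51.3, 49.7 and 51.5 to 41.9, 40 and 42.2 FPKM (-0.29, adjusted p = 0.021 from limma). The difference between the cell lines was called for ICT1 (0.43), AURKAIP1 (0.41) and GADD45GIP1 (0.72). With the length and GC correction, AURKAIP1 was no longer called (0.29, adjusted p = 0.055 from limma), GADD45GIP1 was (0.70), and ICT1 had no annotated length under that symbol and no value. Of 25 assembly and rRNA modification factors measured, 0 were called in MDA-MB-468 (9 at an unadjusted p under 0.05) and 2 fell in MDA-MB-231, MPV17L2, an inner membrane protein needed to build the ribosome (-0.45, adjusted p = 0.015 from limma), and NGRN, which stabilises the large rRNA (-0.28, adjusted p = 0.021 from limma). MPV17L2 differed most between the cell lines of that list (0.84, adjusted p = 0.0024 from limma). Among 15 translation factors 0 were called in either cell line (7 and 3 at an unadjusted p under 0.05), and the medians were -0.08 and -0.10. TACO1, an activator of translation of a cytochrome oxidase subunit, had a called difference between the cell lines (0.43, adjusted p = 0.021 from limma). Of 14 aminoacyl-tRNA synthetases, VARS2 rose in MDA-MB-468 (0.27, adjusted p = 0.038 from limma, 0.077 with replicate blocks, and 0.097 with the length and GC correction). Of 9 genes of mtDNA transcription and RNA stability 0 were called in either cell line (1 and 3 at an unadjusted p under 0.05). Of 8 regulators of mitochondrial biogenesis, GABPB1, the partner of GABPA, fell in MDA-MB-231 (-0.30, adjusted p = 0.018 from limma) and differed between the cell lines (0.48, adjusted p = 0.0076 from limma). Among 15 proliferation genes, AURKA, a mitotic kinase, fell in MDA-MB-231 (-0.29, adjusted p = 0.034 from limma), the medians were 0.00 and -0.09, and the difference between the cell lines was called for AURKA and CCNB1. With the length and GC correction none of these 3 calls remained, with adjusted p of 0.065 for AURKA in MDA-MB-231 and of 0.058 and 0.081 for the differences of AURKA and CCNB1. The part of proliferation in the members' values was not tested.

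The medians of the 15 mtDNA-encoded genes lay on the opposite side of 0 from those of the members in both cell lines. The median log2 fold change was -0.24 in MDA-MB-468, where 14 of 15 were negative and 0 were called (9 at an unadjusted p under 0.05), and 0.16 in MDA-MB-231, where 10 were positive and 2 were called, MT-ND5 of complex I (0.45, adjusted p = 0.025 from limma) and MT-CO2 of complex IV (0.29, adjusted p = 0.048 from limma). MDA-MB-468 had the lower change for 8 of the 15 genes (against 6.83% of all genes) and the higher one for 0 (against 7.91%), and the lower one for 6 in the fit with replicate blocks. With the length and GC correction the lower change was called for 9 (831 of 10181 genes). In MDA-MB-468 that correction gave 2 genes called lower, MT-ND6 and MT-RNR2 (358 of 10181 genes). In MDA-MB-231 it gave 5 called higher (646 of 10181 genes). MT-ND5 differed most, at 3490, 3190 and 3140 FPKM in MDA-MB-468 controls and 2690, 2560 and 2790 in KO samples, and at 2790, 2740 and 2480 in MDA-MB-231 controls and 3920, 3440 and 3620 in KO samples (-0.74, SE 0.11, adjusted p = 0.0016 from limma). MT-RNR2, the RNA of the large mitoribosomal subunit, differed by -0.69 (adjusted p = 0.030 from limma). The library kit selects polyadenylated RNA, and the part of this step in the values of mtDNA transcripts was not tested.

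**Figure D4:**
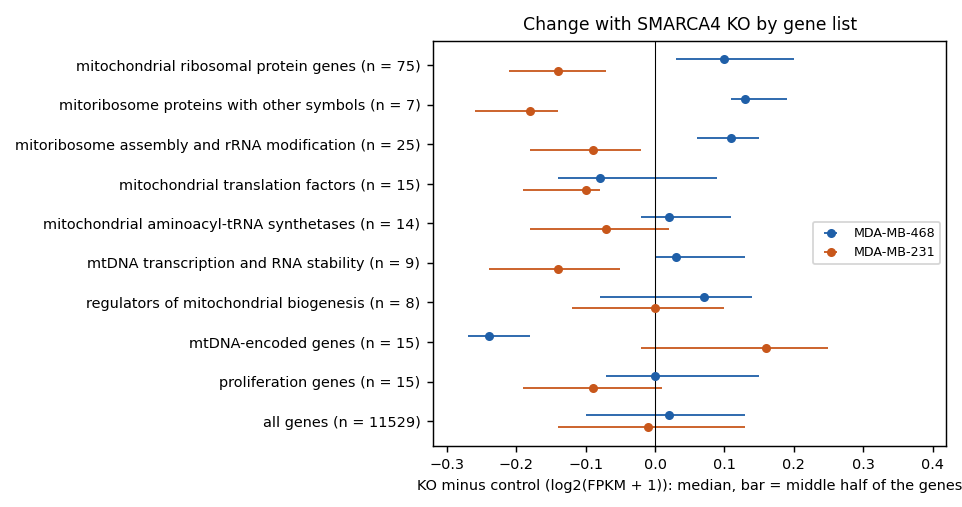
Median log2 fold change of KO against control (points) with the range from the first to the third quartile of genes (bars), for the mitochondrial ribosomal protein genes, the related lists and all genes, in MDA-MB-468 (blue points) and MDA-MB-231 (orange points). The members lie at 0.10 and -0.14, and the mtDNA-encoded genes at -0.24 and 0.16.

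The cell lines themselves were then compared, first in controls. Limma called 29 members higher in MDA-MB-468 (38.7%, against 42.4% of all genes) and 30 lower (40.0%, against 41.5%), shares near those of all genes. The log2 differences ranged from -1.32 to 2.30 with a median of -0.02. MRPS21 had FPKM of 68.6, 68.2 and 67.8 in MDA-MB-468 controls and 12.8, 12.7 and 13.6 in MDA-MB-231 controls (2.30, adjusted p = 2.1e-08 from limma), and it has 8 named pseudogenes. MRPS17 had 43.2, 52 and 52.7 against 12, 9.63 and 11.9 (2.05, adjusted p = 9.9e-07 from limma). MRPL4 had 210, 241 and 248 against 82.3, 71 and 80.3 (1.57, adjusted p = 1.6e-06 from limma). The groups of these genes were far apart. MRPL39, a relative of threonyl-tRNA synthetase (1.17), and MRPL49 (1.11) followed. In the other direction, MRPS10 had 40.2, 37.8 and 37.9 against 95.5, 93.6 and 104 (-1.32, adjusted p = 1e-06 from limma). MRPS27, an RNA-binding protein of the small subunit, had 17.4, 18 and 18 against 47.2, 45 and 45.1 (-1.31, adjusted p = 4.8e-07 from limma). MRPL52 (-1.11), MRPL14 (-1.08) and MRPL17 (-1.05) came next. RNA levels of members thus differed in both directions between the cell lines, as those of all genes did in similar shares.

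MRPS17 (chr7:56019570-56024193, GRCh37) lies 740 kb from EGFR, whose log2 difference was 3.67. Within 1 Mb of MRPS17 lay 9 other measured genes with an annotated position, EGFR among them. All were higher in MDA-MB-468 controls, with a median log2 difference of 2.79. They included PSPH (2.79), CHCHD2 (2.44) and CCT6A (2.17). GBAS (2.63), which overlaps MRPS17 on the same strand and is now called NIPSNAP2, was also higher in MDA-MB-468 controls. Of the 65 members with 5 or more such neighbours, 53 (81.5%) had the sign of their neighbours' median, against 70.1% of 8796 genes, and the Spearman rho of a gene's difference with that median was 0.69 over members and 0.43 over all genes. MRPS10 was among them, with a neighbours' median of -0.80 over 29 genes, whereas MRPL24 (-0.99) had neighbours with a median of 0.34. DNA copy number was not analysed here.

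In KO samples, which share no sample with the controls, 39 members were called higher in MDA-MB-468 (52.0%, against 43.4% of all genes) and 21 lower (against 40.0%), with a median of 0.19 against 0.05 over all genes. Of the members, 29 were called higher in both comparisons (38.7%, against 38.8% of all genes) and 21 lower (against 36.6%). The values of MRPS21 (2.33), MRPS17 (2.39), MRPL4 (2.10), MRPS15 (1.44) and MRPL39 (1.24) were the largest, and those of MRPS27 (-1.14), MRPS10 (-1.12), MRPL17 (-1.04), MRPL52 (-0.70) and MRPL24 (-0.67) the lowest. In 8 members the lower level in MDA-MB-468 was called in controls and no difference was called in KO samples. The same count over all genes was not made, and a call present in only 1 of these separate fits is not a test of a change. MRPS24 was called in opposite directions, at -0.26 in controls and 0.20 in KO samples, though the latter was 0.09 (adjusted p = 0.23 from limma) and not called after the length and GC correction. MRPL41 was at -0.56 in controls (adjusted p = 0.00012 from limma) and at -0.04 in KO samples (adjusted p = 0.58 from limma). After the correction for length and GC content MRPL41 was called lower in KO samples, at -0.32 (adjusted p = 0.0022 from limma). So were MRPL54, at -0.29 (adjusted p = 0.022 from limma), and MRPL46, at -0.18 (adjusted p = 0.039 from limma). MRPL44 was not called with it, at 0.07 (adjusted p = 0.36 from limma). With that correction 34 members were called higher and 29 lower in KO samples, against 4259 and 4364 of 10181 genes. The median was 0.086, against -0.004 over those genes.

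**Figure D5:**
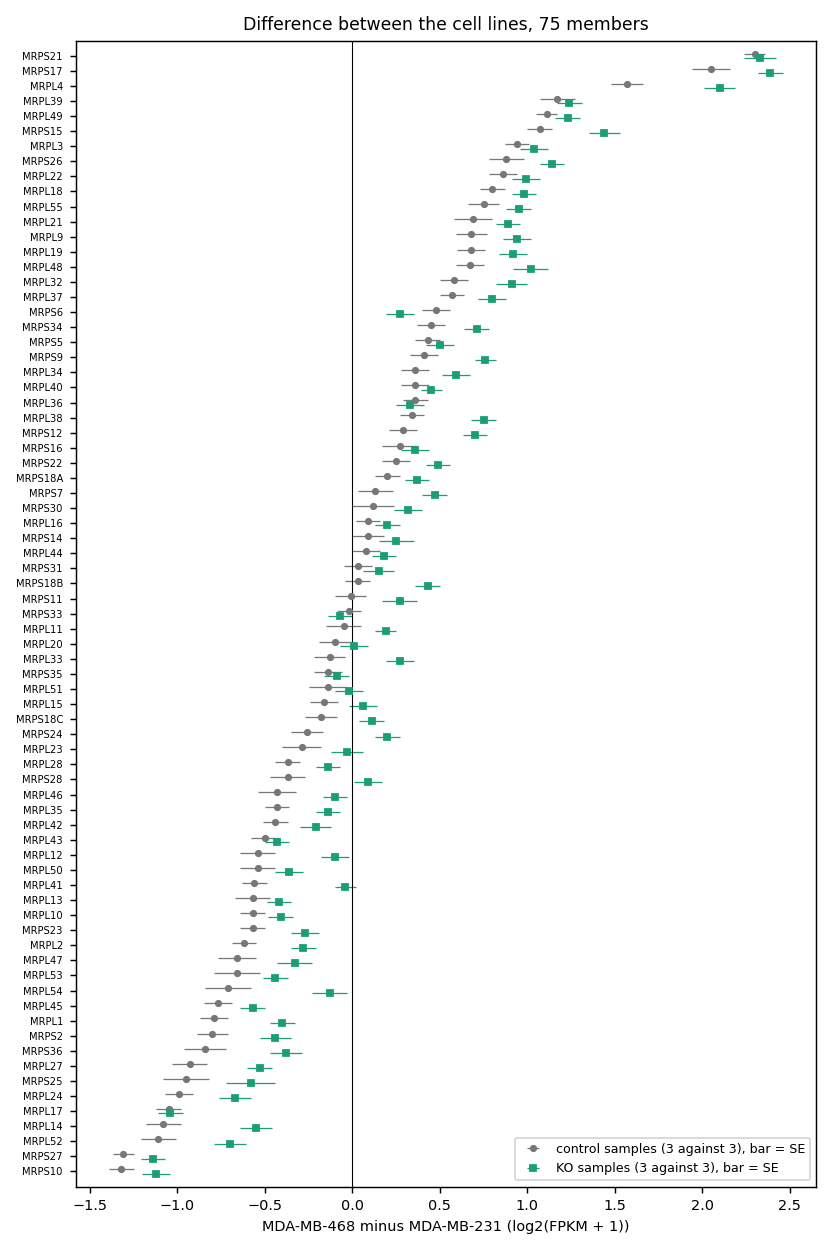
MDA-MB-468 minus MDA-MB-231, log2(FPKM + 1), for the 75 members, in control samples (grey circles) and KO samples (green squares), 3 against 3 samples each, with standard errors; genes are ordered by the difference in controls. Values run from MRPS10 at -1.32 to MRPS21 at 2.30 in controls, and most squares lie to the right of their circles.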

How the data were processed

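RNA of 12 samples was sequenced with a stranded mRNA kit. The authors trimmed reads, aligned them with STAR to hg19 and estimated FPKM with RSEM, and they removed genes with a low mean or SD of FPKM. Whether strand was used in counting is not given in the sources used here. They deposited log2(FPKM + 1) values, so the depth is unknown and no interval from counts was computed. Groups came from the sample labels.

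All 11529 genes were fitted with limma 3.58.1 in R 4.3.3 (lmFit, eBayes without trend), each cell line alone for KO against control, all 12 samples for the difference of changes, and control or KO samples alone for the cell lines, with Benjamini-Hochberg adjustment over all genes. The code was tested on simulated data. Members, gene lists and tests were chosen with earlier results of these data known. Named members were the 5 largest changes in each direction past an adjusted p of 0.05 in each comparison (with fewer than 3 such members, the 3 smallest p per direction), members past 0.5 in KO against control, the 5 highest and 5 lowest levels, the MRPS18 paralogues and MRPS36. Other genes were SMARCA4 and list genes called in KO against control. AURKAIP1, GADD45GIP1, TACO1, CCNB1 and MT-RNR2 were outside this rule and were named after their differences between the cell lines were seen. All members called in KO against control were described.

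The replicate numbers come from the sample titles. In MDA-MB-468, the deviations of same-numbered KO and control samples correlated weakly across genes (r = 0.254, 0.161 and 0.119). In MDA-MB-231 they did not (r = -0.0543, 0.0741 and -0.115). Same-numbered KO samples of different cell lines gave r = 0.175, 0.0204 and 0.115, so these values do not show pairing. The replicate block was run as an alternative. The sample descriptions also carry a p number without explanation, which same-numbered control and KO samples share in MDA-MB-231 and not in MDA-MB-468. For the length and GC correction, a loess surface (span 0.3) was fitted in every sample over 10181 genes (88.3% of rows, including all 75 members) and removed; it was chosen after seeing the data. GRCh37 positions came from GENCODE release 44, promoters from RefSeq (GRCh38.p14), and 2 list symbols were matched by RefSeq synonyms. Figures were drawn with matplotlib 3.10.9 in Python 3.11.15.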

Additional observations from a re-analysis of the deposited data

Results flagged for a closer look

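The change with SMARCA4 KO differed between the cell lines in 11 of the named members, by the limma test of the difference itself with an adjusted p under 0.05. MDA-MB-468 had the higher change in each of them, by 0.58 on the log2 scale in MRPL54, 0.54 in MRPL14, 0.53 in MRPL4, 0.52 in MRPL41, 0.46 in MRPS24, 0.46 in MRPS28, 0.42 in MRPL38, 0.40 in MRPL33, 0.40 in MRPS18B, 0.38 in MRPL1 and 0.37 in MRPS15. With the replicate number as a block, MRPL1, MRPL33, MRPL54, MRPS15 and MRPS28 no longer passed (adjusted p = 0.053, 0.069, 0.056, 0.088 and 0.087 from limma), and with the correction for GC content and length MRPL33, MRPL54, MRPS15, MRPS24 and MRPS28 did not (adjusted p = 0.16, 0.062, 0.090, 0.064 and 0.12 from limma). Groups of 3 samples were not searched for outlying samples.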

How the results depend on the processing

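The numbers of members called in KO against control were sensitive to the processing, and the medians kept their sign in both cell lines and in the difference. In MDA-MB-468 the 3 calls became 6 in 1 fit of all samples, 1 with the GC and length correction and 0 with the replicate number or the p number of the labels as a block (2.47% and 0.0% of all genes called), and 0 to 3 on leaving out a sample; the median of 0.104 was 0.063 with the correction and 0.058 to 0.130 on leaving out a sample, the lowest without control replicate 1. In MDA-MB-231 the 8 calls became 4 with a pseudocount of 0.1, 5 with the same 75th percentile, 5 with quantile normalization, 5 with a log2 fold change over 0.25, 0 in the replicate block fit, in which 0 of all 11529 genes were called (33.3% of members and 27.1% of all genes at an unadjusted p under 0.05), and 0 to 2 on leaving out a sample; the median of -0.140 was -0.096 with the correction and -0.104 with the same 75th percentile. Same-numbered samples of MDA-MB-231 share the p number too, which the labels do not explain, and did not deviate together. For the difference of changes the 17 calls became 7 with the correction, 11 with a pseudocount of 0.1, 8 with quantile normalization, 8 with the replicate block, 9 with the same 75th percentile and 5 to 16 on leaving out a sample. Of all genes, 14.7% were called in the main fit, and 15.9%, 12.8%, 13.2%, 12.7% and 14.0% in the first 5 of these settings. The median of 0.236 was 0.167, 0.189 and 0.188 with the correction, quantile normalization and the same 75th percentile, and 0.189 to 0.273 on leaving out a sample. Between the cell lines the counts of 59 in controls and 60 in KO samples stayed within 1.5 times in all alternatives run, and were 58 and 58 with the replicate block, a number the samples of the 2 cell lines only share. The median of -0.022 in controls turned to 0.002 with the same 75th percentile and ranged from -0.067 to 0.034 on leaving out a sample, and that of 0.190 in KO samples was 0.086 with the correction and 0.140 with quantile normalization. The median level of members in MDA-MB-468 controls was 5.84 with a pseudocount of 0.1, against 5.86. The causes of these shifts were not tested. With 1 sample left out, a group of 2 was fitted with the same pooled spread. Without read counts, the precision that depth gives each value is unknown.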
